A study of Mus musculus with 12 samples.

Results

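The 37 genes described here are interferon-stimulated genes that encode restriction factors, RNA enzymes, ubiquitin and ISG15 machinery, ADP-ribosyltransferases, nuclear body proteins, apoptosis-linked proteins and lectins. They were taken as a list by symbol, which was chosen with earlier results of these data known. All 37 were found among the 54232 gene identifiers of the count table, and all 37 passed the filter on low counts. Transcripts were counted in NK cells (CD45+ CD3ε- NK1.1+) and CD8 T cells (CD45+ CD3ε+ CD8a+) sorted from subcutaneous tumours of the mouse colon adenocarcinoma line MC38. The mice were sex- and age-matched at 6 to 12 weeks, on a C57BL/6N background, and the tumours were taken after 8 to 10 days. WT mice carried intact Tyk2, KO mice (Tyk2-/-) lacked the TYK2 protein in all cells, and KE mice carried the K923E point mutation, which leaves a TYK2 protein without kinase activity in all cells. Each of the 6 groups of cell type and genotype had 2 libraries of 300 sorted cells. No group received interferon or any other agent apart from the tumour cells. The sources used here do not say whether the 2 libraries of a group came from separate mice, so p-values measure the spread between libraries, which may in part be technical.

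Type I interferon binds a receptor whose IFNAR1 chain carries TYK2. TYK2 also serves receptors of other cytokines, among them interleukin 12. After type I interferon, TYK2 and JAK1 phosphorylate STAT proteins, which enter the nucleus with IRF9 and bind the interferon-stimulated response element (ISRE) in the promoters of their target genes. Many target genes keep a basal level in unstimulated immune cells, and together they restrict viruses and tune the handling of RNA, protein modification and cell death. The question put to each gene was whether its transcript was lower without TYK2, whether it was lower in the same way when only the kinase activity was missing, and whether NK cells and CD8 T cells differed.

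The ISRE core, spelled GAAANNGAAA and searched on both strands, was looked for in RefSeq promoter windows of GRCm38.p6 that run from 250 bases before to 50 bases after each annotated start. Windows were found for 33 of the 37 genes, and 8 of the 33 (24.2%) held the core in at least 1 window, against 3.99% of 27025 genes with a window. The core of the gamma-activated site, TTCNNNGAA, was in the windows of 5 of the 33 (15.2%), against 9.55% of all genes. Of the 11 genes called lower in the mutants as described further on, Bst2, Phf11b and Lgals9 held the ISRE core, 6 held none and Parp9 and Ifi27l2a had no window. The 8 genes with the core had a median log2 fold change of -1.59 in the mutants and the 25 without it -1.41. These are matches of letters and not measured binding sites. Gene coordinates further on are those of GENCODE vM21 on GRCm38, whose gene ends can differ by some bases from the RefSeq starts. The 140 bases before the RefSeq start are shown for these 3 genes, for Ddx60, which held 2 copies, and for Xaf1, which was called and held none. Capitals mark the ISRE core on either strand, and the overlapping pair in Bst2 is marked as 1 run.
Bst2, chr8:71537473-71537612, minus strand: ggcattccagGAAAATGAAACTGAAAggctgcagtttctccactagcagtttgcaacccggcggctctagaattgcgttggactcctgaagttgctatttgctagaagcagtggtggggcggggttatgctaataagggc
Phf11b, chr14:59341331-59341470, minus strand: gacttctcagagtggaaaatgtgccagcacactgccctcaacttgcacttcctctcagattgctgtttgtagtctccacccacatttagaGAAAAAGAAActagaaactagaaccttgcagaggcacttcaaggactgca
Lgals9, chr11:78984925-78985064, minus strand: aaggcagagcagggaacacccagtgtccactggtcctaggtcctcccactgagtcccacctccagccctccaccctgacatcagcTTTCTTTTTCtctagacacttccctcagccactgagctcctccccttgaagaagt
Ddx60, chr8:61927947-61928086, plus strand: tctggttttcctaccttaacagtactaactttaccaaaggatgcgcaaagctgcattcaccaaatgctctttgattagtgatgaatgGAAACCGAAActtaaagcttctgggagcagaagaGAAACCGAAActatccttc
Xaf1, chr11:72301489-72301628, plus strand: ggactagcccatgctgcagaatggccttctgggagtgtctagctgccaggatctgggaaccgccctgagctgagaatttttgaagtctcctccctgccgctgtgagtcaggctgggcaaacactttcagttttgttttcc

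Total counts per library lay between 10378761 and 14732882. Levels are given as CPM, the count divided by the TMM-scaled library size and multiplied by 1e+06, in which the floor of 3 counts in a library corresponds to 0.218 to 0.276 CPM. The common biological coefficient of variation was 109%. The sort markers followed the labels, with Cd8a at 2825 to 4086 CPM in CD8 libraries and 2.7 to 4.52 CPM in NK libraries. Some other markers of the sorted cells did not overlap between WT and the mutants. In NK libraries Cd3e, a marker the NK sort selected against, lay at 7.17 and 8.96 CPM in WT and 9.93 to 51.7 CPM in the mutants, the NK cell receptor gene Ncr1 at 843 and 934 against 1230.0 to 2298 CPM, and Klrb1c at 1066 and 1435 against 1556 to 2247 CPM. Ptprc, which encodes CD45, overlapped in NK libraries, and in CD8 libraries lay at 2105 and 2518 CPM in WT and 1677 to 2014 CPM in the mutants. Cd3e, Klrb1c and Ncr1 overlapped in CD8 libraries. The part of these markers in the results was not tested. Tyk2 itself, the mutated gene, was not lower in the mutants as a group. It lay at 60.8 and 68.9 CPM (WT), 56.3 and 105 CPM (KO) and 119 and 82.3 CPM (KE) in NK libraries. The CD8 libraries held it at 48.3 and 86.1 CPM (WT), 61.9 and 73.8 CPM (KO) and 58.9 and 46.7 CPM (KE). Both NK KE libraries lay above both NK WT libraries, while NK KO lay below WT in 1 library and above it in the other. CD8 KO lay within the CD8 WT range, and CD8 KE reached below that range in 1 library. A count over the whole gene cannot tell an altered transcript from an intact one, so it gives no check of the genotype labels. Markers of myeloid cells moved with genotype in the NK libraries. The summed level of 14 myeloid markers was 16130 and 13810 CPM in NK WT, 7124 and 26.2 CPM in NK KO and 63.7 and 408 CPM in NK KE, with Lyz2, which encodes lysozyme, at 2505 and 2098 CPM (WT), 3376 and 19.4 CPM (KO) and 14.2 and 94.3 CPM (KE). At most 4 of the 14 markers were at 0 in any NK library. CD8 libraries summed to 230.5 and 213 CPM in WT, 211 and 53.0 CPM in KO and 594 and 292 CPM in KE, with 2 to 4 markers at 0, so that KO lay below WT and KE above it without overlap. A list of 6 neutrophil markers summed to 6.28 to 14.2 CPM in the WT libraries and 0 to 0.0921 CPM in the mutants of both cell types, with 5 or 6 markers at 0 in every library, and rested on Csf3r in NK cells and Mmp9 in CD8 T cells. A list of 5 stromal markers summed to 18.2 and 35.9 CPM in CD8 WT and 0 to 4.98 CPM in the CD8 mutants, with 2 or 3 markers at 0 in WT and 3 to 5 in the mutants, and did not separate the NK genotypes. A list of 5 tumour epithelial markers was higher in the CD8 mutants, at 2.98 to 26.7 CPM against 1.93 and 0 CPM in CD8 WT, with 2 to 4 markers at 0 in the mutants and 3 or 5 in WT. A list of 5 B cell markers summed to 6.43 and 10.1 CPM in CD8 KO, against 0 and 0.726 CPM in CD8 WT and 0 in CD8 KE, with 4 or 5 markers at 0. A list of 6 dendritic cell markers summed in NK cells to 17.1 and 4.78 CPM (WT), 0.156 and 0.0739 CPM (KO) and 21.8 and 27.1 CPM (KE), with 4 or 5 markers at 0, and in CD8 KE to 8.35 and 31.8 CPM, below the 44.4 and 33.2 CPM of CD8 WT. The mean myeloid marker level was used as a covariate further on, and the part of the other lists in the results was not tested. In these bulk libraries, fewer cells of a type and less RNA per cell cannot be told apart.

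Most of the 37 genes had lower transcript levels in tumour-derived cells of both mutants. With KO and KE weighted equally and both cell types averaged, 36 of 37 had a log2 fold change below 0, with a median of -1.51 against -0.0347 over all 13279 genes tested. By the edgeR quasi-likelihood test, 11 genes were called lower, where a call needs an FDR (Benjamini-Hochberg adjusted p) under 0.05 together with a log2 fold change of 1 or more in size, which is 29.7% of the 37 against 0.384% of all genes. They were Bst2, Isg20, Samd9l, Parp9, Dtx3l, Pml, Phf11b, Xaf1, Ifi27l2a, Lgals3bp and Lgals9. No gene of the list was called higher. As the list was chosen with earlier results of these data known, its shares beside those of all genes are a description only. At an unadjusted p under 0.05, 30 of the 37 were lower and 0 higher, against 6.88% of all genes lower. DESeq2 called 20 of the 37, all lower, against 3.4% of all genes. Bst2, Phf11b and Ifi27l2a stayed called when any 1 of the 12 libraries was left out. Of the 12 such fits, Isg20 and Xaf1 were called in 10, Pml in 9, Lgals3bp in 8, Samd9l and Lgals9 in 4, Dtx3l in 2 and Parp9 in 1. The count of 11 fell to 3 without NK WT 1 or without CD8 WT 1, to 6 without CD8 WT 2, and to 7 without NK KE 1, NK KE 2, CD8 KO 1 or CD8 KO 2. With the mean myeloid marker level as a covariate, which follows genotype in the NK libraries, 0 of 13279 genes were called by edgeR and the median of the 37 was -1.30.

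Within CD8 T cells, where the summed myeloid markers were below WT in KO and above WT in KE, 8 of the 37 were called lower by edgeR (21.6% against 0.166% of all genes). These were Isg20, Samd9l, Dtx3l, Phf11b, Xaf1, Ifi27l2a, Lgals3bp and Lgals9. With the myeloid covariate 2 of the 8 stayed called, Ifi27l2a and Xaf1. The log2 fold changes of the other 6 changed little, for example to -2.13 (FDR 0.0527) for Phf11b and -2.08 (FDR 0.0755) for Isg20. The CD8 median was then -1.77. With KO and KE on either side of WT in these markers, the covariate could change their mean only a little. The small change therefore does not show how far the myeloid markers bear on these values. Without the covariate the median of the 37 was -1.78 against 0 over all genes. In that fit 21 were lower at an unadjusted p under 0.05 (4.35% of all genes), and DESeq2 called 16 (2.46% of all genes). Within NK cells the median was -1.32 against -0.0463 over all genes. Here edgeR called 0 of the 37 (0.0301% of all genes were called lower), 20 were lower at an unadjusted p under 0.05 (6.85% of all genes), and DESeq2 called 10 (3.37% of all genes). The smallest FDR in NK cells was 0.0676, for Phf11b. With the myeloid covariate the NK median was -0.45. For the 11 genes called over both cell types the NK log2 fold changes with the covariate were -2.55 for Phf11b, -2.43 for Ifi27l2a, -2.33 for Pml, -1.91 for Bst2, -1.5 for Isg20, -1.33 for Parp9, -1.24 for Dtx3l, -0.697 for Lgals3bp, -0.351 for Samd9l, -0.302 for Xaf1 and -0.268 for Lgals9, all with an FDR of 0.987 or more. The CD8 count of 8 was 0 in a fit of the CD8 libraries alone, and 0 when either CD8 WT, either CD8 KO or NK WT 1 was left out, 2 without NK WT 2, 3 without CD8 KE 1, 4 without NK KE 1 or CD8 KE 2 and 5 without NK KE 2.

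By role, the genes called lower over both cell types were 1 of 4 membrane restriction factors, 2 of 6 RNA and nucleotide enzymes, 0 of 6 genes of the ISG15 and ubiquitin machinery, 2 of 4 ADP-ribosylation genes, 2 of 6 nuclear body and chromatin genes, 2 of 8 cytoplasmic and apoptosis-linked genes and 2 of 3 lectin and surface genes, against 0.384% of all genes. The same order gives 2, 4, 5, 4, 5, 7 and 3 genes lower at an unadjusted p under 0.05, against 6.88% of all genes.

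Levels can also be read without a test. In NK cells all 4 mutant libraries lay below both WT libraries for 26 of the 37 genes, against 10.8% of all genes. In CD8 T cells this held for 25, against 7.49% of all genes. It held in both cell types for 16 genes, against 1.57% of all genes: Bst2, Isg20, Cmpk2, Samd9l, Ube2l6, Parp14, Pml, Sp100, Phf11b, Xaf1, Ifi27l2a, Ifi35, Rtp4, Epsti1, Lgals3bp and Lgals9. Only Znfx1 had all 4 mutant libraries above both WT libraries, in CD8 T cells, where 6.79% of all genes did. KO and KE share their WT libraries in these counts.

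**Figure D1:**
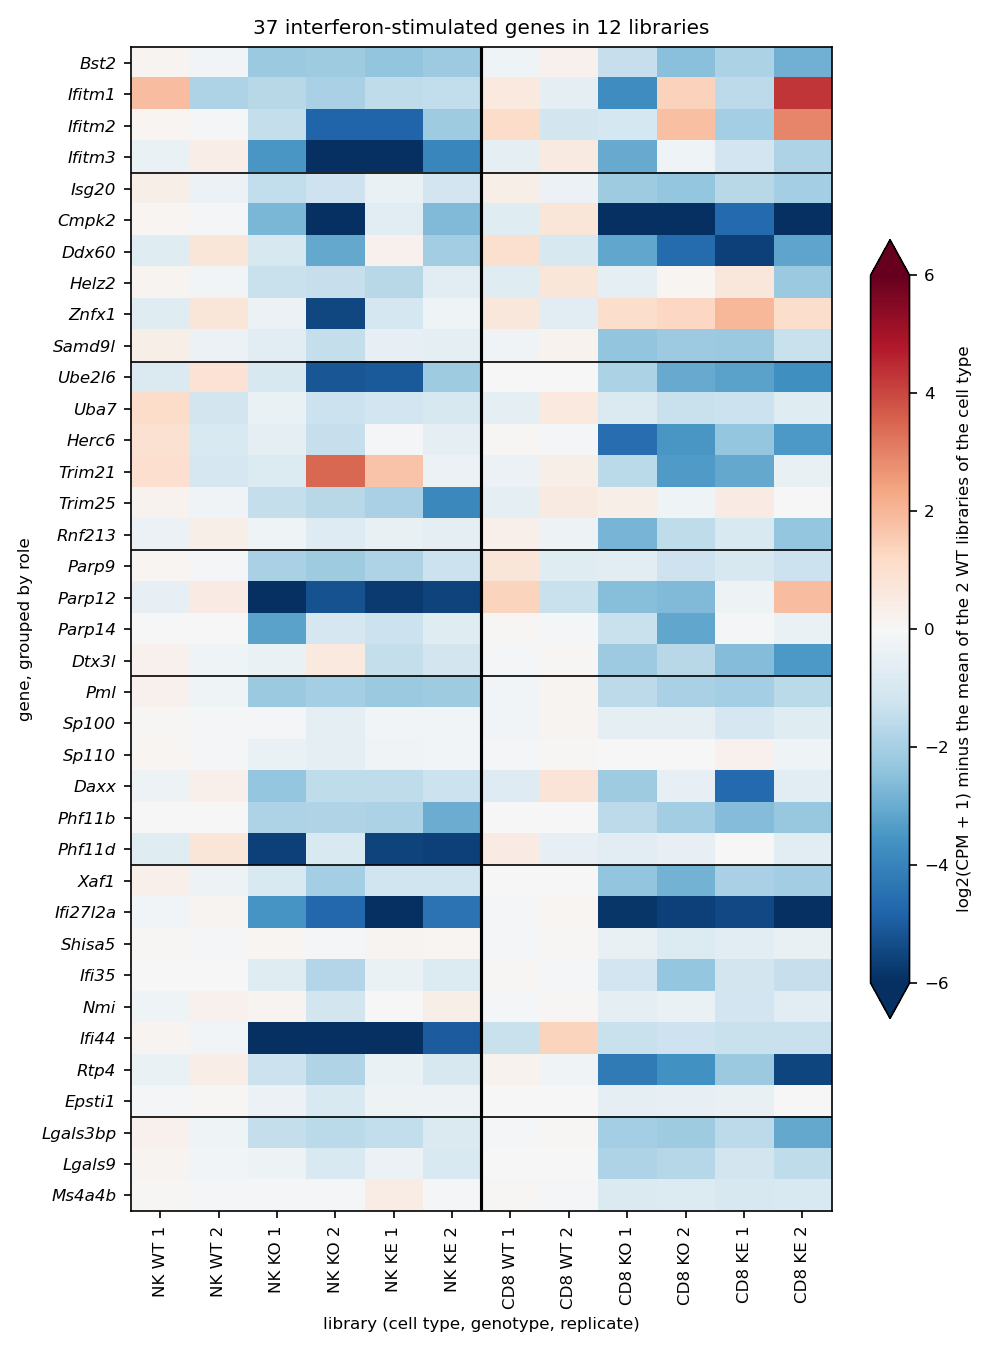
Heat map of the 37 genes (rows, grouped by role) in the 12 libraries (columns), where colour is log2(CPM + 1) minus the mean of the 2 WT libraries of the same cell type, so that blue is lower and red higher than WT; colours saturate at -6 and 6. Mutant columns are mostly blue in both cell types, with the mean over mutant libraries lowest for Ifi27l2a, Cmpk2 and Ifi44, while Sp110, Shisa5 and Epsti1 stay within 1 of WT in every mutant library.

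Membrane restriction factors were Bst2 (tetherin, which holds budding virus particles at the cell surface) and Ifitm1, Ifitm2 and Ifitm3, which block the entry of enveloped viruses. Bst2 (chromosome 8, 71534255 to 71537456, minus strand) lay at 272 and 217 CPM (WT), 50.9 and 55.5 CPM (KO) and 45.6 and 52.1 CPM (KE) in NK cells. The CD8 libraries held Bst2 at 208 and 305 CPM (WT), 95.1 and 43.7 CPM (KO) and 66.7 and 33.7 CPM (KE). No mutant library reached a WT library of its cell type, and the log2 fold change over both cell types was -2.19 (SE 0.27, FDR 0.00776). The NK value was -2.26 (SE 0.38, FDR 0.0819) and the CD8 value -2.12 (SE 0.38, FDR 0.0727), which differ by less than 1 SE.

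Ifitm3 was low in the mutant NK libraries, at 304 and 522 CPM (WT), 35.0 and 1.26 CPM (KO) and 1.93 and 25.6 CPM (KE). CD8 T cells had Ifitm3 at 44.7 and 93.3 CPM (WT), 7.04 and 53.3 CPM (KO) and 28.4 and 17.3 CPM (KE), where KO 2 lay above WT 1. The NK log2 fold change of Ifitm3 was -4.70 (SE 1.19, FDR 0.248) and that of CD8 T cells -1.40 (SE 1.14, FDR 0.899), and edgeR called neither, whereas DESeq2 called Ifitm3 lower in NK cells. Ifitm3 is also expressed by myeloid cells, whose summed markers in the same 6 NK libraries were the 16130, 13810, 7124, 26.2, 63.7 and 408 CPM given above. With the myeloid marker level as a covariate the Ifitm3 value was -0.579 (SE 1.58) in NK cells and -0.813 (SE 0.94) over both cell types, against -3.05 (SE 0.81) without it. Ifitm2 had NK counts of 350 and 323 (WT), 119 and 0 (KO) and 0 and 73 (KE). Its CD8 levels of 13.6 and 2.25 CPM (WT), 2.3 and 23.2 CPM (KO) and 0.661 and 50.8 CPM (KE) did not separate the genotypes. The Ifitm2 value of -0.86 (SE 1.57, FDR 1) over both cell types was 3.15 with the myeloid marker level as a covariate. Ifitm1 stood apart by library rather than genotype, with 120.2 and 53.4 CPM (WT), 5.13 and 207 CPM (KO) and 26.2 and 1594 CPM (KE) in CD8 T cells. In NK cells Ifitm1 had counts of 198 and 5 (WT), 7 and 4 (KO) and 8 and 10 (KE), so only NK WT 1 was far above the floor. The 3 Ifitm genes lie close together on chromosome 7 and resemble each other, and reads that aligned to more than 1 place were not counted.

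Among antiviral RNA and nucleotide enzymes, Isg20, an exonuclease that degrades single-stranded RNA, and Samd9l, which restrains translation and cell growth, were called over both cell types. Isg20 lay at 201 and 120.2 CPM (WT), 55.9 and 64.6 CPM (KO) and 116 and 69.7 CPM (KE) in NK cells. The CD8 libraries held Isg20 at 629.7 and 395 CPM (WT), 114 and 100.3 CPM (KO) and 157 and 119 CPM (KE). All mutant libraries lay below WT in each cell type, although NK KE 1 came close to NK WT 2. The log2 fold change of Isg20 was -1.59 (SE 0.22, FDR 0.0141) over both cell types, with an NK value of -1.10 (SE 0.31, FDR 0.323) and a CD8 value of -2.08 (SE 0.31, FDR 0.0318). Samd9l lay at 411 and 257 CPM (WT), 205 and 119 CPM (KO) and 234 and 217 CPM (KE) in NK cells. Its CD8 levels were 252 and 328 CPM (WT), 55.0 and 63.4 CPM (KO) and 61.2 and 112 CPM (KE), and mutants and WT did not overlap in either cell type. Over both cell types Samd9l had -1.41 (SE 0.23, FDR 0.0314), from an NK value of -0.80 (SE 0.32, FDR 0.517) and a CD8 value of -2.02 (SE 0.32, FDR 0.0411), the latter called.

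Cmpk2, a mitochondrial nucleotide kinase, had CD8 counts of 665 and 1877 (WT), 1 and 1 (KO) and 27 and 0 (KE), so that KE 1 was the only mutant library above the floor. NK levels of Cmpk2 were 112 and 97.6 CPM (WT), 14.9 and 0.0739 CPM (KO) and 64.1 and 15.95 CPM (KE), with KE 1 the highest of the mutant libraries. The fitted log2 fold change in CD8 T cells, -8.20 (SE 1.77, FDR 0.2), rests on 3 mutant libraries under the floor and is no bound. Ddx60, a helicase that aids RNA sensing, had -2.87 (SE 0.86, FDR 0.273) over both cell types, and Helz2, a helicase and nuclear co-activator, -0.80 (SE 0.51, FDR 0.714). Znfx1, a helicase of the mitochondrial surface that senses double-stranded RNA, gave the only value above 0 over both cell types. It lay at 21.6 and 7.62 CPM (WT), 27.6 and 31.9 CPM (KO) and 54.8 and 27.8 CPM (KE) in CD8 T cells, all mutants above WT. NK levels of Znfx1 were 28.0 and 78.1 CPM (WT), 36.8 and 0.0739 CPM (KO) and 22.4 and 39.2 CPM (KE), all within or below the WT range, and the log2 fold change over both was 0.05 (SE 0.97, FDR 1). The non-coding gene Zfas1 overlaps Znfx1 on the other strand, and since no source says that strand was used in counting, reads of the overlap cannot be assigned.

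Of the 6 genes for ISG15 conjugation and ubiquitin ligases, 6 had a negative log2 fold change over both cell types, 5 at an unadjusted p under 0.05 (6.88% of all genes), and 0 were called by edgeR (0.384%). DESeq2 called 3 of them (3.4% of all genes), Ube2l6, Herc6 and Rnf213. Herc6, the mouse ISG15 ligase, lay at 95.3 and 87.4 CPM (WT), 2.91 and 7.22 CPM (KO) and 17.7 and 7.54 CPM (KE) in CD8 T cells. NK levels of Herc6 were 42.5 and 11.3 CPM (WT), 14.6 and 7.76 CPM (KO) and 20.4 and 15.1 CPM (KE), where mutant libraries reached above WT 2. The CD8 log2 fold change was -3.51 (SE 0.81, FDR 0.241) and the NK value -0.93 (SE 0.81, FDR 0.89). Rnf213, a large ubiquitin ligase, lay at 505 and 325 CPM (WT), 57.9 and 138 CPM (KO) and 218 and 81.2 CPM (KE) in CD8 T cells, without overlap. NK levels of Rnf213 were 209.6 and 339.7 CPM (WT), 222 and 156 CPM (KO) and 194 and 176 CPM (KE), with KO 1 above WT 1. Over both cell types its value was -1.17 (SE 0.31, FDR 0.21).

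Uba7, the E1 enzyme that activates ISG15, lay at 255 and 56.1 CPM (WT), 89.9 and 48.5 CPM (KO) and 54.3 and 62.2 CPM (KE) in NK cells, where WT 1 alone was high. CD8 levels of Uba7 were 93.8 and 209 CPM (WT), 75.2 and 54.6 CPM (KO) and 56.3 and 84.7 CPM (KE), and the value over both cell types was -1.23 (SE 0.39, FDR 0.314). Its NK value was -2.03 to 0.177 when single libraries were left out, and the positive value came without NK WT 1. Ube2l6, the E2 enzyme for ISG15, was separated by genotype in both cell types, with 114 and 119 CPM (WT), 30.3 and 13.3 CPM (KO) and 11.8 and 8.28 CPM (KE) in CD8 T cells. The NK libraries of Ube2l6 lay at 22.4 and 75.3 CPM (WT), 20.6 and 0.222 CPM (KO) and 0.276 and 8.61 CPM (KE), and the log2 fold change over both cell types was -2.91 (SE 0.95, FDR 0.324), not called by edgeR, and -0.0156 (SE 2.06) with the myeloid covariate. Trim25, a ligase that activates RNA sensing, had an NK value of -2.16 (SE 0.63, FDR 0.337) and a CD8 value of 0.08 (SE 0.65, FDR 1). In NK cells DESeq2 called Trim25 lower for the mutants together and for KE alone, but not for KO alone. Trim21, a cytosolic antibody receptor, was sparse, with NK counts of 37 and 0 (WT), 2 and 281 (KO) and 61 and 8 (KE). CD8 counts of Trim21 were 96 and 173 (WT), 31 and 0 (KO) and 3 and 90 (KE), and the value of -0.20 (SE 1.81, FDR 1) over both cell types ran from -1.94 to 3.44 when single libraries were left out.

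The ADP-ribosylation genes were Parp9, Parp12, Parp14 and Dtx3l. PARP9 and the ubiquitin ligase DTX3L work as a complex, and their genes lie head to head on chromosome 16, with the annotated genes overlapping by 682 bases on opposite strands. Parp9 (chromosome 16, 35938470 to 35972605, plus strand) lay at 264 and 220.4 CPM (WT), 61.4 and 53.9 CPM (KO) and 66.8 and 97.5 CPM (KE) in NK cells. CD8 levels of Parp9 were 412 and 146 CPM (WT), 159 and 102 CPM (KO) and 124 and 99.4 CPM (KE), where KO 1 exceeded WT 2. The log2 fold change was -1.51 (SE 0.27, FDR 0.0458) over both cell types, with an NK value of -1.81 (SE 0.38, FDR 0.146) and a CD8 value of -1.21 (SE 0.38, FDR 0.603). The call of Parp9 was lost in 11 of the 12 fits without 1 library and with the replicate block, and the CD8 value ran from -1.77 to -0.277, the latter without CD8 WT 1.

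Dtx3l (chromosome 16, 35926511 to 35939151, minus strand) lay apart from WT in all 4 mutant CD8 libraries, at 254 and 285 CPM (WT), 59.2 and 83.3 CPM (KO) and 44.0 and 23.6 CPM (KE). NK levels of Dtx3l were 91.2 and 63.8 CPM (WT), 56.8 and 117 CPM (KO) and 27.4 and 34.5 CPM (KE), so that the KO libraries lay on either side of the WT range and the KE libraries below it. The CD8 log2 fold change was -2.46 (SE 0.39, FDR 0.0411), the NK value -0.58 (SE 0.40, FDR 0.781) and the value over both -1.52 (SE 0.28, FDR 0.0498). Reads from the shared 682 bases cannot be assigned to either gene.

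Parp12, an antiviral mono-ADP-ribosyltransferase, had NK counts of 565 and 1241 (WT), 0 and 11 (KO) and 3 and 6 (KE). All 4 mutant NK libraries of Parp12 lay under 1 CPM, against 47.3 and 95.6 CPM in WT, and DESeq2 called it lower there, whereas edgeR gave -7.50 (SE 1.74, FDR 0.203). CD8 levels of Parp12 were 14.8 and 1.52 CPM (WT), 0.0765 and 0 CPM (KO) and 4.05 and 22.1 CPM (KE), so KE 2 was the highest library. Parp14, which modifies signalling proteins, was lower than WT in every mutant library, with 132 and 131 CPM (WT), 13.1 and 64.1 CPM (KO) and 52.8 and 79.2 CPM (KE) in NK cells. The CD8 libraries of Parp14 lay at 174 and 159 CPM (WT), 64.5 and 18.1 CPM (KO) and 153 and 125 CPM (KE), with a log2 fold change of -1.26 (SE 0.42, FDR 0.332) over both cell types, not called.

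Nuclear body and chromatin genes included 2 of the called genes. Pml, which builds PML nuclear bodies, lay at 117 and 82.8 CPM (WT), 20.0 and 23.1 CPM (KO) and 20.5 and 21.6 CPM (KE) in NK cells. CD8 levels of Pml were 129.9 and 168 CPM (WT), 48.4 and 37.5 CPM (KO) and 35.5 and 47.4 CPM (KE). The 8 mutant libraries were all below the 4 WT libraries, and the log2 fold change was -2.02 (SE 0.26, FDR 0.00902) over both cell types. Phf11b, a member of the PHD finger gene family Phf11, had the smallest FDR of the 37. Phf11b (chromosome 14, 59320964 to 59341351, minus strand) lay at 258 and 245 CPM (WT), 69.1 and 70.6 CPM (KO) and 66.3 and 31.5 CPM (KE) in NK cells. CD8 levels of Phf11b were 456 and 452 CPM (WT), 154 and 105 CPM (KO) and 73.7 and 93.9 CPM (KE), again without overlap. The NK value was -2.11 (SE 0.30, FDR 0.0676), the CD8 value -2.12 (SE 0.30, FDR 0.0258) and the value over both cell types -2.11 (SE 0.21, FDR 0.00399).

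Its neighbour Phf11d was sparse, with NK counts of 362 and 1112 (WT), 1 and 364 (KO) and 1 and 1 (KE). CD8 counts of Phf11d were 16 and 1 (WT), 0 and 1 (KO) and 7 and 0 (KE). Of the mutant NK libraries only KO 2 had more than 1 count, and the fitted NK value of -5.70 (SE 2.09, FDR 0.463), which rests on libraries under the floor, was not called. The Phf11 genes are similar copies whose shared reads were not counted. Sp100, another nuclear body protein, lay a little below WT in every mutant library, with 962 and 1213 CPM (WT), 754 and 726 CPM (KO) and 539 and 661 CPM (KE) in CD8 T cells. NK levels of Sp100 were 759.9 and 711 CPM (WT), 686 and 484 CPM (KO) and 664 and 650.3 CPM (KE), and the log2 fold change over both cell types was -0.48 (SE 0.13, FDR 0.21). Sp110, of the same gene family, lay at 273 and 228 CPM (WT), 191 and 174 CPM (KO) and 214 and 226 CPM (KE) in NK cells. CD8 levels of Sp110 were 134 and 152 CPM (WT), 146 and 142 CPM (KO) and 171 and 120.3 CPM (KE), and the value over both was -0.15 (SE 0.16, FDR 0.945). Daxx, a histone chaperone, had -1.64 (SE 0.69, FDR 0.464) over both.

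Among the apoptosis-linked and cytoplasmic genes, Ifi27l2a showed the most marked difference of the called genes. Ifi27l2a (chromosome 12, 103442167 to 103443680, minus strand), an interferon-inducible membrane protein, lay at 1868 and 2205 CPM (WT), 34.1 and 40.2 CPM (KO) and 47.1 and 5.71 CPM (KE) in CD8 T cells. NK levels of Ifi27l2a were 168 and 216 CPM (WT), 15.5 and 6.43 CPM (KO) and 0.645 and 7.86 CPM (KE). Groups of WT and mutant libraries were far apart in both cell types, and the log2 fold change was -5.42 (SE 0.60, FDR 0.00459) over both. Xaf1, which counters the apoptosis inhibitor XIAP, lay at 228 and 152 CPM (WT), 97.4 and 44.2 CPM (KO) and 81.8 and 81.6 CPM (KE) in NK cells. CD8 levels of Xaf1 were 359 and 377 CPM (WT), 70.6 and 51.2 CPM (KO) and 93.9 and 84.5 CPM (KE), and no mutant library reached WT in either cell type. The value over both was -1.82 (SE 0.23, FDR 0.00902), from -1.32 (SE 0.33, FDR 0.244) in NK and -2.32 (SE 0.33, FDR 0.0258) in CD8 libraries, and the NK value was -0.302 (SE 0.52) with the myeloid covariate.

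Rtp4, a chaperone of membrane receptors, lay below WT in every mutant library, with 395 and 296 CPM (WT), 17.0 and 26.8 CPM (KO) and 72.1 and 6.59 CPM (KE) in CD8 T cells. NK levels of Rtp4 were 155 and 267 CPM (WT), 83.5 and 57.3 CPM (KO) and 154 and 105 CPM (KE), with KE 1 just under WT 1. The log2 fold change was -2.35 (SE 0.47, FDR 0.0765) over both, not called by edgeR, while DESeq2 called Rtp4 lower over both and in CD8 T cells. Masp1 overlaps Rtp4 on the other strand. Ifi44, a cytoplasmic protein of the interferon response, had NK counts of 1889 and 1642 (WT), 0 and 0 (KO) and 0 and 46 (KE). Against the floor of 3 counts per library, the NK KO level was at least 624-fold lower than the WT mean. This bound covers counting error only and not the spread between libraries. Neither the main edgeR fit nor DESeq2 called Ifi44 in NK cells. With the myeloid covariate its NK value for the mutants together was -2.1 (SE 13.3). In CD8 T cells Ifi44 was at 0 in WT 1 too, with counts of 0 and 75 (WT), 0 and 1 (KO) and 0 and 0 (KE), and the fitted value there is no bound. Ifi35 and Nmi, partners of a cytoplasmic complex, had -1.15 (SE 0.26, FDR 0.125) and -0.39 (SE 0.24, FDR 0.704) over both cell types. Nmi lay at 130.3 and 187 CPM (WT), 175 and 73.4 CPM (KO) and 155 and 198 CPM (KE) in NK cells, with KE 2 the highest. CD8 levels of Nmi were 253 and 285 CPM (WT), 176 and 204 CPM (KO) and 121 and 173 CPM (KE), without overlap. Epsti1 had -0.42 (SE 0.14, FDR 0.334).

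Shisa5, a protein of the endoplasmic reticulum linked to cell death, was abundant and nearly even in NK cells, at 3642 and 3405 CPM (WT), 3785 and 3204 CPM (KO) and 3894 and 3872 CPM (KE). CD8 levels of Shisa5 were 3338 and 3796 CPM (WT), 2625 and 1999 CPM (KO) and 2239.7 and 2576 CPM (KE), with all mutant libraries under WT. The NK value was 0.06 (SE 0.14, FDR 1) and the CD8 value -0.60 (SE 0.14, FDR 0.232), neither called.

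The secreted and surface genes were Lgals3bp, a galectin-binding glycoprotein, Lgals9, which encodes galectin-9, and Ms4a4b, a membrane protein of T cells and NK cells. Lgals3bp lay at 1353 and 969 CPM (WT), 427 and 376 CPM (KO) and 417 and 618 CPM (KE) in NK cells. CD8 levels of Lgals3bp were 678 and 760.3 CPM (WT), 176 and 163 CPM (KO) and 245 and 84.4 CPM (KE). No mutant library reached WT, and the value over both was -1.73 (SE 0.24, FDR 0.0141). Lgals9 lay at 681 and 547 CPM (WT), 499 and 322 CPM (KO) and 485 and 321 CPM (KE) in NK cells. CD8 levels of Lgals9 were 710.5 and 734 CPM (WT), 202 and 221 CPM (KO) and 336 and 253 CPM (KE). The mutants were below WT in each cell type, with -1.06 (SE 0.17, FDR 0.0273) over both, an NK value of -0.59 (SE 0.24, FDR 0.51) and a CD8 value of -1.53 (SE 0.23, FDR 0.0339). Ms4a4b lay at 5245 and 4903 CPM (WT), 2774 and 2902 CPM (KO) and 2604 and 2667 CPM (KE) in CD8 T cells, where all mutant libraries were lower. It had an FDR of 0.0411 there, with a log2 fold change of -0.89 (SE 0.14), short of the fold required for a call. NK levels of Ms4a4b were 2708 and 2378 CPM (WT), 2412 and 2394 CPM (KO) and 3428 and 2356 CPM (KE), which overlapped, with 0.05 (SE 0.15, FDR 1).

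**Figure D2:**
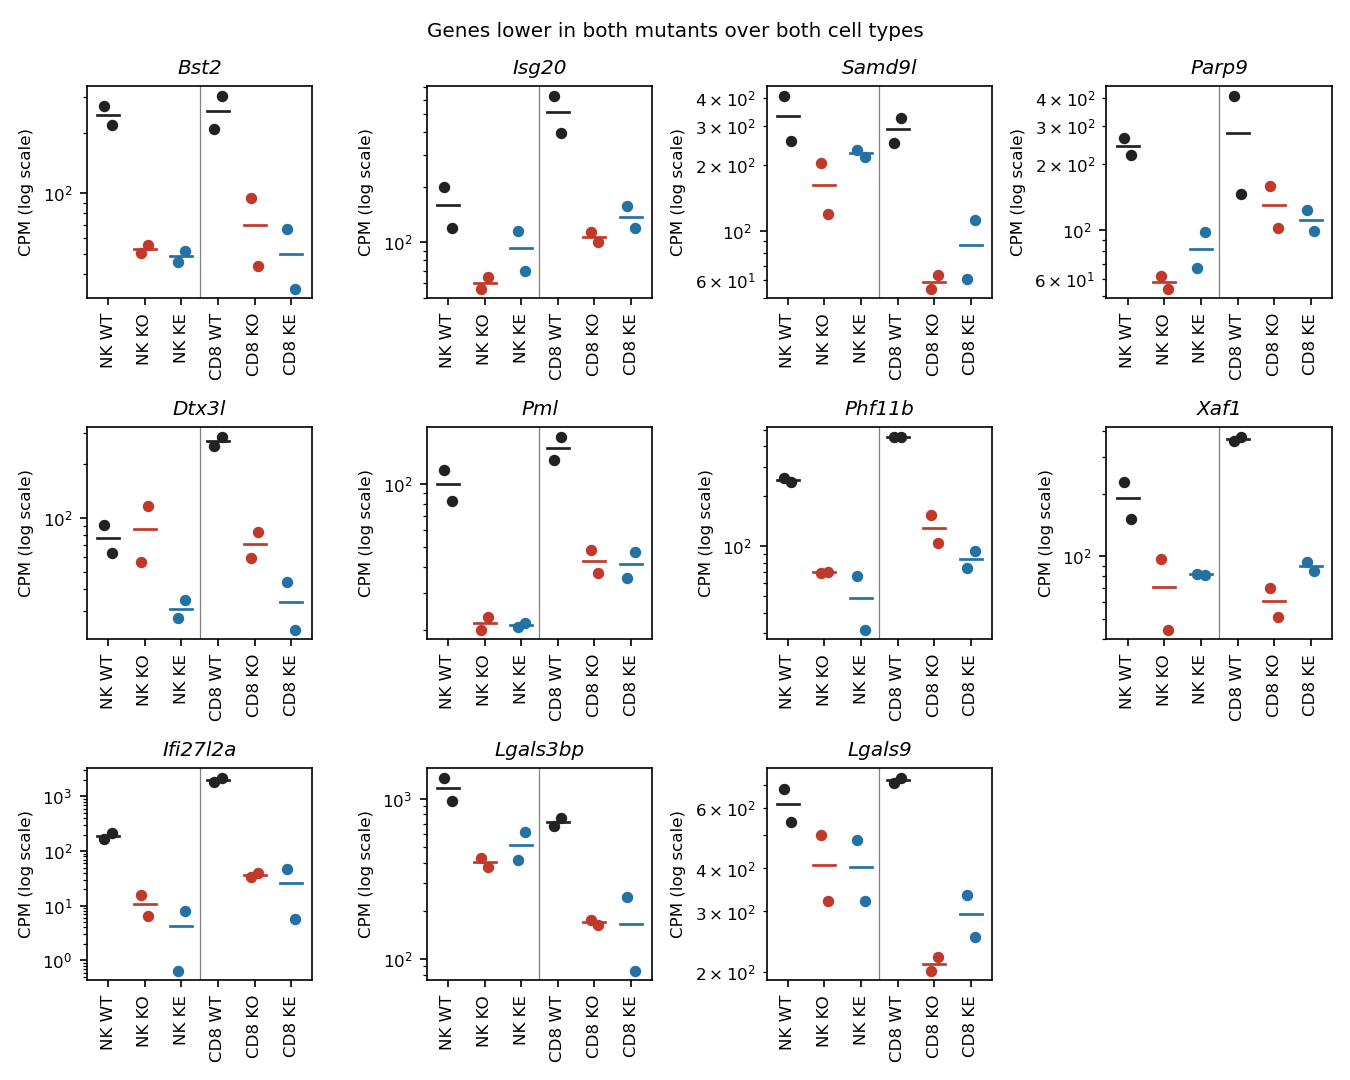
Levels of the 11 called genes in CPM (log scale), 1 panel per gene, with a point per library and a bar at the mean of the 2 libraries of each group. WT is black, KO red and KE blue, NK cells to the left and CD8 T cells to the right of the line; for Pml and Ifi27l2a every mutant point lies below the WT points of its cell type, and for Dtx3l the NK KO 2 point lies above both NK WT points and NK KO 1 below them.

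**Figure D3:**
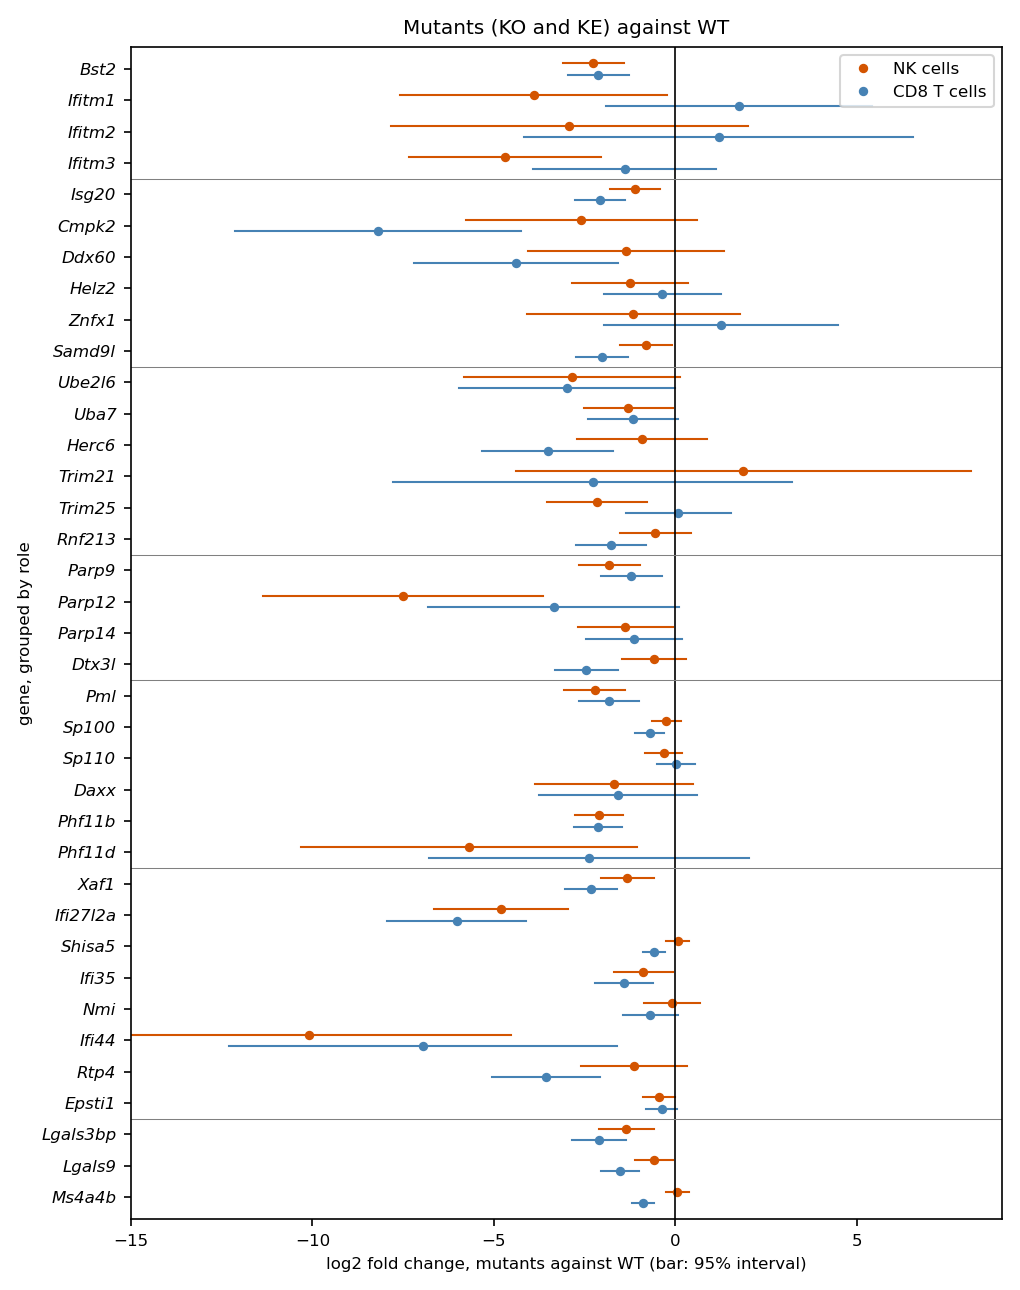
Log2 fold change of the mutants (KO and KE together) against WT for each of the 37 genes, in NK cells (orange) and CD8 T cells (blue), with the 95% interval of the edgeR fit as a bar, cut at the edge of the axis where it runs past it. Most points lie left of 0 in both cell types, with medians of -1.32 in NK cells and -1.78 in CD8 T cells.

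Kinase dependence was read by setting KO and KE side by side. Relative to WT the median log2 fold change of the 37 genes was -1.53 in NK KO and -1.17 in NK KE, while CD8 T cells had -1.81 (KO) and -1.47 (KE), where the medians of all genes were -0.00876, 0, 0 and 0. The single mutants gave 0 calls among the 37 by edgeR in each of the 4 comparisons, in which 0%, 0%, 0.0301% and 0.0452% of all genes were called lower. At an unadjusted p under 0.05 the lower genes numbered 15 in KO (3.98% of all genes) and 13 in KE (3.95%) for NK cells, and 23 (2.54%) and 21 (3.02%) for CD8 T cells. In the same order DESeq2 called 10, 8, 16 and 13, against 2.85%, 2.93%, 1.76% and 2.49% of all genes. When single libraries were left out, edgeR called 0 to 2 in CD8 KO and 0 to 2 in CD8 KE.

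Some of the called genes are given for both mutants, as log2 fold changes against WT. In NK cells Phf11b had -1.85 (SE 0.37) in KO and -2.36 (SE 0.38) in KE, and Pml -2.21 (SE 0.47) and -2.24 (SE 0.47). In CD8 T cells Ifi27l2a had -5.78 (SE 1.15) in KO and -6.27 (SE 1.18) in KE, and Xaf1 -2.59 (SE 0.42) and -2.04 (SE 0.41). These pairs share their WT libraries, so the direct difference of KO and KE was tested as well.

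In the direct comparison edgeR called 0 of the 37 in either cell type, and 0 of 13279 genes (0%). The summed myeloid markers differed between the mutants of CD8 T cells, as given above. With the myeloid covariate edgeR again called 0 of the 37 in either cell type, and the median difference in CD8 T cells was 0.0388. The median difference was -0.267 in NK cells and -0.12 in CD8 T cells. At an unadjusted p under 0.05, Dtx3l and Phf11d were higher in NK KO than NK KE (1.75% of all genes were higher), Dtx3l was higher in CD8 KO (1.94%), and Parp12 and Parp14 were lower there (1.68%). All 5 had an FDR of 1. DESeq2 called 0 in NK cells (1.54% of all genes) and Parp12 in CD8 T cells (1.18%). For Dtx3l the difference was 1.49 (95% interval 0.42 to 2.55) in NK cells and 1.08 (95% interval 0.02 to 2.13) in CD8 T cells. For Parp14 in CD8 T cells it was -1.75 (95% interval -3.36 to -0.14), and KO libraries lay at 64.5 and 18.1 CPM against 153 and 125 CPM in KE.

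The intervals limit what can be said of equality. The 95% interval stayed within a log2 difference of 1 in either direction for 6 genes in NK cells (Epsti1, Lgals9, Ms4a4b, Shisa5, Sp100 and Sp110) and for 6 in CD8 T cells (Epsti1, Lgals3bp, Ms4a4b, Shisa5, Sp100 and Sp110). Its median width was 2.95 in both cell types. Pml differed by 0.03 (95% interval -0.97 to 1.03) in NK cells and 0.05 (95% interval -0.95 to 1.05) in CD8 T cells. For Bst2 the difference was 0.12 (95% interval -0.88 to 1.13) and 0.47 (95% interval -0.54 to 1.47), and for Phf11b 0.51 (95% interval -0.29 to 1.32) and 0.63 (95% interval -0.17 to 1.43). Differences of up to these sizes lie within the intervals.

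**Figure D4:**
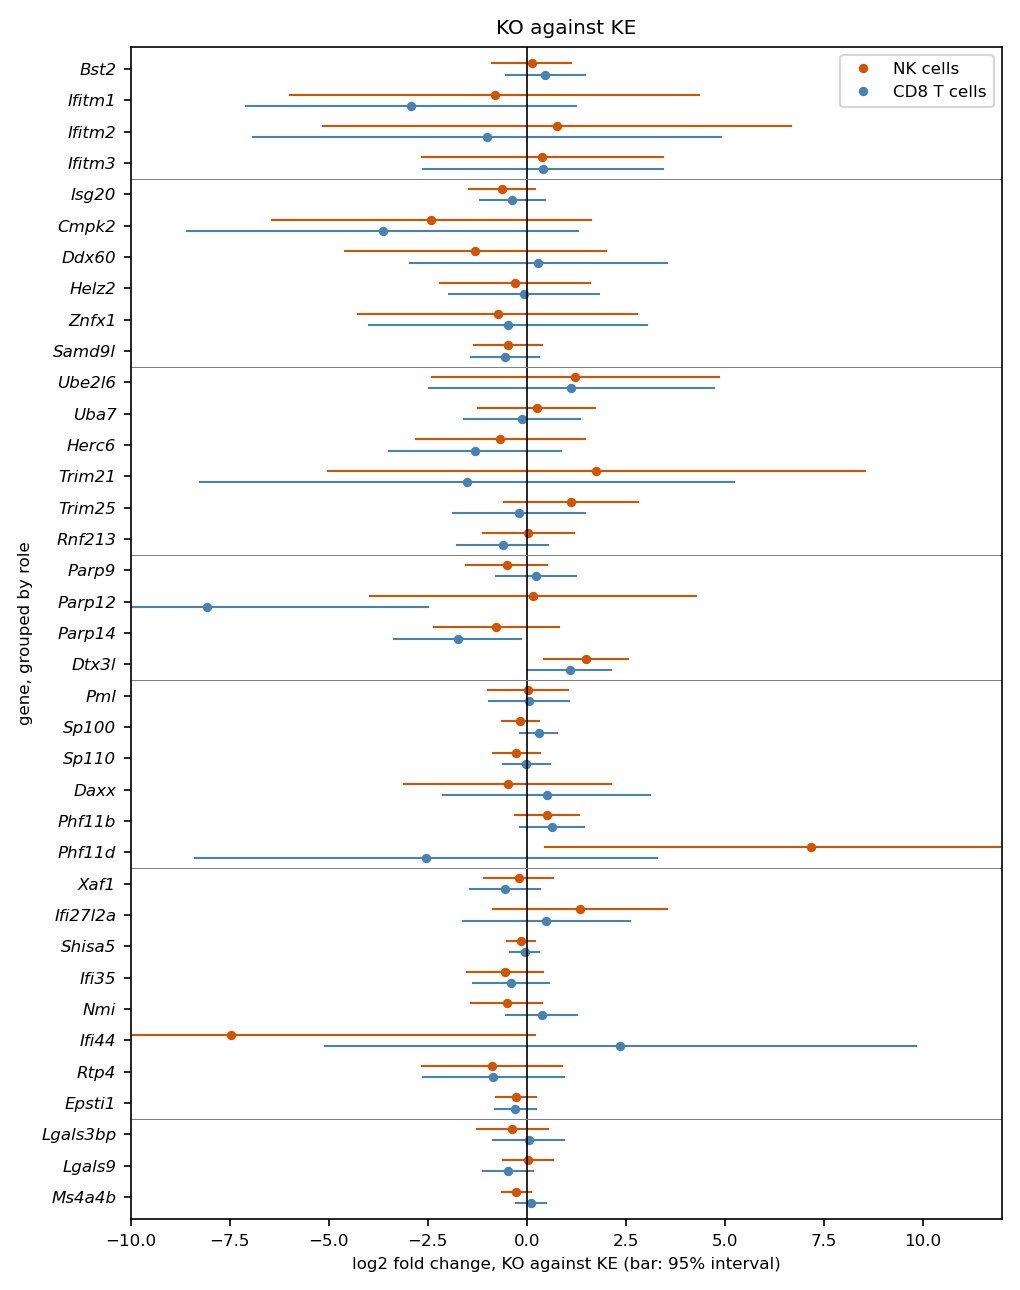
Log2 fold change of KO against KE for each of the 37 genes in NK cells (orange) and CD8 T cells (blue), with the 95% interval of the edgeR fit as a bar, cut at the axis edge for Parp12, Phf11d and Ifi44. Of the 37 intervals, 35 hold 0 in NK cells and 34 in CD8 T cells; Dtx3l lies right of 0 in both.

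Differences between the cell types were taken over the 3 genotypes. Called lower in NK cells than in CD8 T cells were Ifitm1, Isg20 and Ifi27l2a (3 of 37, 8.11%, against 2.5% of all genes), and called higher were Samd9l and Lgals3bp (2 of 37, 5.41%, against 1.97%). The log2 fold changes of NK against CD8 T cells were -7.13 (SE 1.36, FDR 0.0131) for Ifitm1, -1.03 (SE 0.22, FDR 0.0212) for Isg20, -2.59 (SE 0.58, FDR 0.0276) for Ifi27l2a, 1.01 (SE 0.22, FDR 0.0258) for Samd9l and 1.20 (SE 0.24, FDR 0.0159) for Lgals3bp. For Samd9l the difference in WT alone was 0.21 (95% interval -0.65 to 1.06), with overlapping libraries. When single libraries were left out, Ifitm1 ran from -8.62 (without NK WT 1) to -5.47 (without CD8 KE 2), with -5.67 without CD8 KO 2, and Ifi27l2a from -3.51 (without NK KE 2) to -1.86 (without CD8 KE 1). In WT libraries Ifi27l2a lay at 1868 and 2205 CPM in CD8 T cells and at 168 and 216 CPM in NK cells. Ifitm1 was highest in CD8 KE 2, at 1594 CPM, and its NK libraries were mostly near the floor. None of the 5 calls held in all 12 fits without 1 library, and none held with the myeloid covariate, under which edgeR called only Ube2l6 among the 37, as lower in NK cells. The count was 1 without NK KE 2 or CD8 WT 1, 2 without NK WT 1, NK KO 1, CD8 KO 1 or CD8 KO 2, and 3 without NK WT 2, CD8 WT 2 or CD8 KE 1. Sp110 was the only gene of the 37 with all 6 NK libraries above all 6 CD8 libraries (2.03% of all genes), at 174 to 273 CPM against 120.3 to 171 CPM, with 0.58 (SE 0.15, FDR 0.0588).

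In WT alone, edgeR called 0 of the 37 in either direction (0.429% of all genes were lower and 0.346% higher in NK cells). At an unadjusted p under 0.05, 7 were lower in NK cells (4.78% of all genes) and 2 higher (5.46%), and DESeq2 called 4 (6.2%). Ms4a4b had an FDR of 0.0243 with a log2 fold change of -0.997 (SE 0.17), just short of the fold required. The WT levels were 2708 and 2378 CPM in NK and 5245 and 4903 CPM in CD8 T cells.

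**Figure D5:**
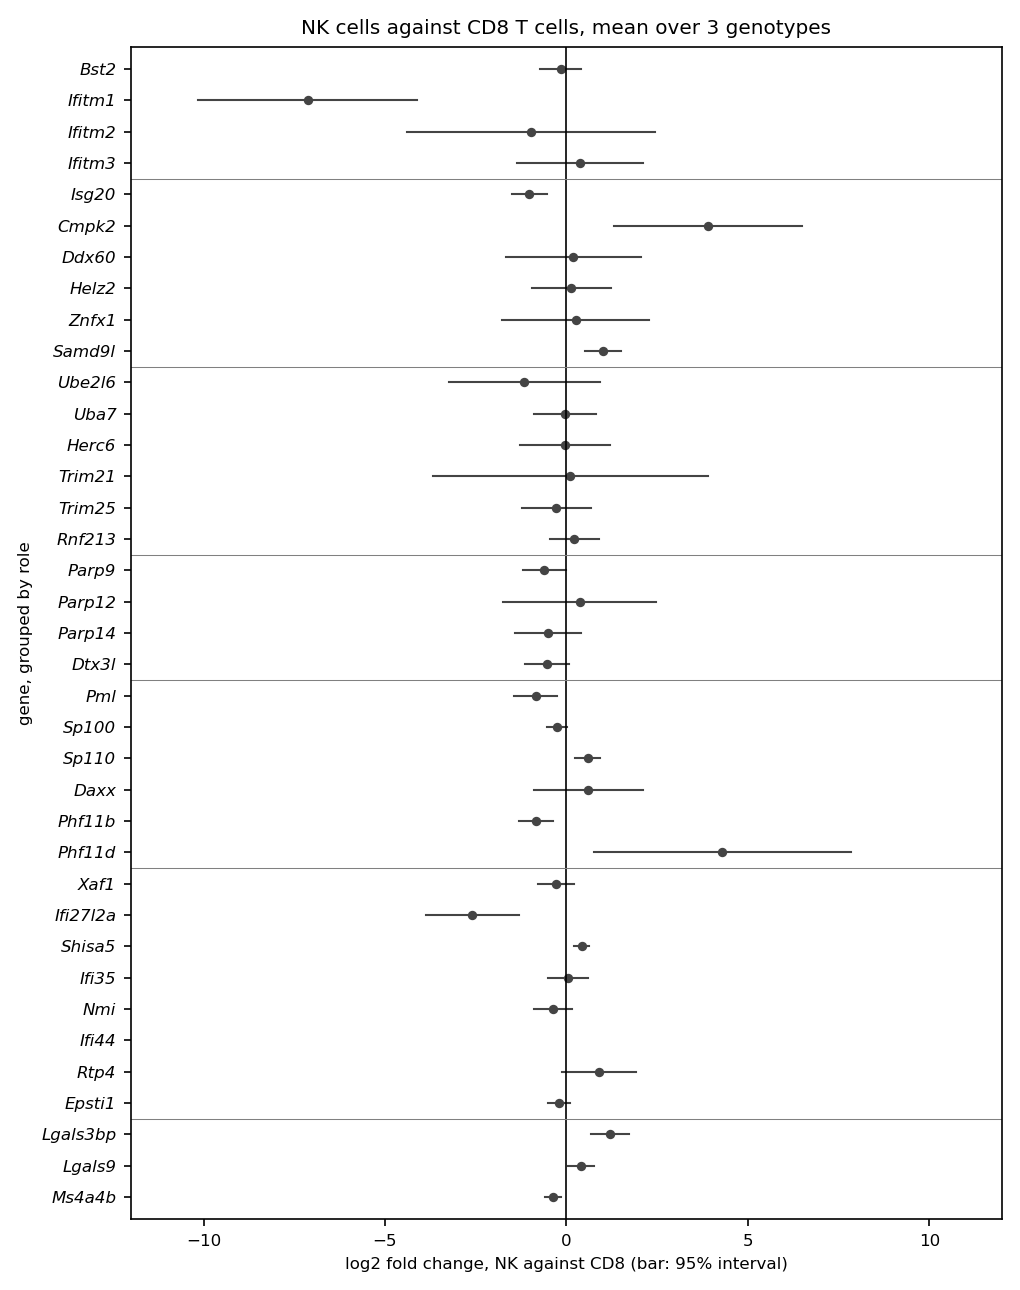
Log2 fold change of NK against CD8 T cells, averaged over the 3 genotypes, for the 37 genes, with the 95% interval of the edgeR fit as a bar; Ifi44 is left out because its fit gave no usable error. Ifitm1 lies farthest left at -7.13 and Phf11d farthest right at 4.30, and the median of the 37 was -0.0413.

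Whether the mutant effect itself differed between NK and CD8 T cells was tested as an interaction. By edgeR 0 of the 37 passed, and 0.0151% of all genes were called with a higher value in NK cells. DESeq2 called 0 (2.03% of all genes). At an unadjusted p under 0.05 the effect was more negative in CD8 T cells for 7 genes, Cmpk2, Samd9l, Dtx3l, Shisa5, Rtp4, Lgals9 and Ms4a4b (2.42% of all genes), and more negative in NK cells for Ifitm1 and Trim25 (3.28%). The smallest p was that of Ms4a4b, with a difference of 0.94 (SE 0.21, unadjusted p 9.21e-04, FDR 0.521). Dtx3l had 1.87 (SE 0.58, unadjusted p 0.00871, FDR 0.777) and Shisa5 0.66 (SE 0.20, unadjusted p 0.00698, FDR 0.777). For Phf11b the difference was 0.02 (95% interval -0.97 to 1.00) and for Bst2 -0.14 (95% interval -1.37 to 1.08). The median interaction of the 37 was 0.138 against -0.0687 over all genes.

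Other genes of the pathway were read from a list of 18 receptor, kinase, STAT, IRF and feedback genes, also chosen with earlier results of these data known. In the mutants over both cell types, 2 of the 18 were called lower by edgeR, against 0.384% of all genes. Lower at an unadjusted p under 0.05 were 7, against 6.88% of all genes, and 0 were higher. The called genes were Irf7, the amplifying transcription factor of interferon induction, with -2.45 (SE 0.38, FDR 0.0254), and Usp18, which removes ISG15 and dampens the receptor, with -4.71 (SE 0.76, FDR 0.0314). Irf7 lay at 607 and 453 CPM (WT), 97.1 and 102 CPM (KO) and 126 and 148 CPM (KE) in NK cells. CD8 levels of Irf7 were 307 and 299 CPM (WT), 52.4 and 19.8 CPM (KO) and 99.3 and 18.4 CPM (KE), so the mutants were below WT throughout. Usp18 lay at 281 and 277 CPM (WT), 7.9 and 69.4 CPM (KO) and 24.7 and 17.6 CPM (KE) in NK cells, and its CD8 counts were 4260 and 3321 (WT), 18 and 153 (KO) and 53 and 2 (KE). Stat2 had -1.41 (SE 0.45, FDR 0.315) and Irf9 -0.94 (SE 0.31, FDR 0.328), and the receptor chains Ifnar1 and Ifnar2 had -0.25 (SE 0.28, FDR 0.95) and 0.01 (SE 0.29, FDR 1).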

How the data were processed

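RNA from NK and CD8 T cells of MC38 tumours was made into Smart-seq2 libraries, 12 in all. The authors trimmed reads with Trimmomatic, aligned them to GRCm38 with STAR and counted uniquely aligned reads per gene with summarizeOverlaps, and the deposited values are these raw counts, not normalised and not pooled. The libraries are described as stranded, but no source says that the counting used strand. Reads aligning to several places were dropped, which lowers the counts of genes with close copies, and without molecular identifiers the floor of 3 counts covers counting error only. Totals were 10378761 to 14732882 counts per library.

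Groups and replicates came from the sample titles. The 37 genes and the gene lists were chosen with earlier results of these data known, and all 37 are named. Values of every library were given for genes called in any comparison and, in each role, for the 3 genes with the smallest p and the 1 with the largest p in the mutants over both cell types, and for the 3 with the smallest p between cell types and in the interaction. Ube2l6, Ifi44 and Phf11d were added after their values were seen. Genes with a mean TMM-normalised count of at least 10 were kept (13279). The quasi-likelihood F-test of edgeR 4.0.16 (R 4.3.3) was fitted with 1 mean per group over all 12 libraries, 2-sided, with Benjamini-Hochberg adjustment over all genes. Contrasts were KO, KE and both mutants against WT, KO against KE, NK against CD8 T cells, and the interaction. The SE was taken as the size of the log2 fold change over the square root of F, and the 95% interval was built from it. Simulated counts with known changes were used to test the script. Alternatives were DESeq2 1.42.0, other size factors, other filters, fits per cell type, a replicate block, a myeloid covariate and leaving out each library. The columns of the table were all mapped to a sample.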

Additional observations from a re-analysis of the deposited data

How the results depend on the processing

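Each count of called genes among the 37, each median log2 fold change of the 37 and each gene's value was recomputed with 1 choice changed. For the median of the 37, DESeq2, DESeq2's size factors in edgeR, a mean count of at least 50 and a fit of each cell type alone moved it by less than the spread between replicates (0.114) in every comparison they were run in. Size factors and the stricter filter left each count within 1.5 times its first value.

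Among NK cells DESeq2 called 10 of the 37 in KO and 8 in KE, among CD8 T cells 16 in KO and 13 in KE, and 10 in NK cells, 16 in CD8 T cells and 20 over both cell types with the mutants combined. It called 1 for KO against KE in CD8 T cells and 4 for NK against CD8 T cells in WT. Without the filter on low counts edgeR called 8 (KO) and 7 (KE) in NK and 10 (KO) and 13 (KE) in CD8 libraries, then 10 in NK cells, 16 in CD8 T cells and 23 over both, 1 for KO against KE in each cell type, 5 for NK against CD8 T cells in WT and 4 for the interaction. Over both cell types edgeR called 57 of all genes, DESeq2 452 and edgeR without the filter 402. In CD8 T cells fitted alone edgeR called 0. Of the unfiltered calls, 12 of the 13 in CD8 KE and 15 of the 16 in CD8 T cells were lower and 1 in each was higher. The fitted folds of near-zero genes in the unfiltered fit are no bounds. The cause of these differences was not tested.

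With the mean myeloid marker level as a covariate, edgeR called 2 in CD8 T cells, 0 over both cell types and 1 for NK against CD8 T cells over all genotypes, Ube2l6, which was not among the 5 called without it. The medians were then -0.733 in NK KO, -0.221 in NK KE, -0.45 in NK cells, -1.3 over both cell types, -0.433 and 0.0388 for KO against KE in NK and CD8 T cells, -0.923 and -0.305 for NK against CD8 T cells in WT and over all genotypes, and 0.819 for the interaction. Values with the opposite sign were 3.15 for Ifitm2 and 0.116 for Nmi over both cell types. In NK cells they were 4.19 for Ifitm2, 3.21 for Cmpk2, 4.61 for Znfx1, 2.8 for Ube2l6, -7.09 for Trim21, 0.125 for Sp100, 0.0215 for Ifi35, 0.875 for Nmi and -0.181 for Ms4a4b. The covariate follows genotype in NK cells, so the 2 cannot be told apart there.

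Replicate numbers are shared by all groups. Deviations of same-numbered libraries from their group means correlated at -0.025 to 0.0378 over the 15 pairs of groups. These correlations were taken over all genes tested, where the wide spread between libraries could hide a shared mouse, tumour or batch. They therefore do not decide whether same-numbered libraries share more than a number. With the replicate block edgeR called 8 over both cell types, 4 in CD8 T cells and 3 for NK against CD8 T cells over all genotypes, the CD8 KE median was -1.32, and Znfx1 was -0.0269 over both cell types, Ifitm2 -0.0238 and Trim25 -0.0438 in CD8 T cells. The sign of Sp110 in CD8 T cells turned to -0.0128 with DESeq2 and -0.0125 with its size factors.

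When each library was left out in turn, the medians ran from -1.73 to -1.27 (KO) and -1.3 to -0.987 (KE) in NK and -1.99 to -1.7 (KO) and -1.55 to -1.27 (KE) in CD8 libraries, and with the mutants combined -1.51 to -1.1 in NK cells, -1.93 to -1.62 in CD8 T cells, -1.67 to -1.31 over both, -0.435 to -0.0918 and -0.285 to 0.09 for KO against KE in NK and CD8 T cells, -0.381 to -0.234 and -0.266 to 0.0355 for NK against CD8 T cells in WT and over all genotypes, and -0.0518 to 0.595 for the interaction. Counts ran from 0 to 2 in CD8 KO and in CD8 KE, 0 to 7 in CD8 T cells, 3 to 11 over both, 0 to 1 for NK against CD8 T cells in WT and 1 to 5 over all genotypes. A group left with 1 library was assumed to vary like the others. Values that took the other sign in at least 1 fit ran as follows. Over both cell types they were -2.31 to 1.13 for Ifitm1, -3.1 to 0.0424 for Ifitm2, -1.91 to 0.523 for Znfx1 and -1.94 to 3.44 for Trim21. In NK cells they were -4.88 to 0.524 for Ifitm1, -2.03 to 0.177 for Uba7, -1.61 to 0.316 for Herc6, -1.13 to 9.21 for Trim21, -0.00207 to 0.113 for Shisa5, -0.48 to 0.165 for Nmi and -0.0958 to 0.174 for Ms4a4b. In CD8 T cells they were -0.718 to 2.46 for Ifitm1, -1.43 to 3.01 for Ifitm2, -1.44 to 0.582 for Helz2, -0.365 to 0.739 for Trim25, -0.119 to 0.134 for Sp110, -4.85 to 0.571 for Phf11d and -8.17 to 1.18 for Ifi44.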
